A study of Homo sapiens with 55 samples.

Results

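EZH2, INTS3, FYN, GNAS and CASP8 are genes described as splicing targets of the SRSF2 mutation P95H. Their splicing events were taken by position, as all events of the deposited tables whose splice junctions lay within the 5 genes on the gene's own strand (hg19). This gave 73 of 110818 events, with 14 in EZH2, 4 in INTS3, 19 in FYN, 15 in GNAS and 21 in CASP8. All 73 carried junctions of an annotated transcript of their own gene.

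SRSF2 is a serine and arginine rich splicing factor that binds short motifs inside exons and helps the spliceosome to recognise those exons. The P95H change, recurrent in myeloid blood cancers, alters this binding so that exons with CCNG motifs are favoured over exons with GGNG motifs. Among its known targets are an EZH2 exon that brings in a premature stop codon, so that the transcript is degraded by nonsense-mediated decay (a poison exon), and the long form of the G protein GNAS.

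The study asked how guides against GPATCH8, a protein with a G-patch domain, change splicing in cells with or without a splicing factor mutation. The SRSF2 panel consisted of K562 cells, an established human leukemia line, that overexpressed SRSF2 P95H or wild-type (WT) SRSF2, each with a guide against GPATCH8 (sgGPATCH8) or with sgRenilla, a control guide whose target, a sea pansy luciferase, human cells lack, with 3 libraries in each of its 4 groups. The U2AF1 panel had the same layout with overexpressed U2AF1 S34F or WT U2AF1 in K562 cells. The SF3B1 panel had K562 cells with SF3B1 K700E knocked in, or WT. Each had 2 libraries for sgGPATCH8, 2 for guides against SUGP1 (sgSUGP1) and 1 for sgRenilla. The 2 libraries of a target were named for different guides, so their spread includes any difference between guides. The 293T panel, from a human embryonic kidney line, had 4 libraries each for sgGPATCH8 and sgSUGP1 and 2 for sgRenilla. The labels put each 293T target under the names WT-1 and WT-2 but sgRenilla under WT-1 only, and do not say what these names stand for. In the 293T comparisons, any difference between WT-1 and WT-2 therefore cannot be told apart from that between target and sgRenilla. All SRSF2 and U2AF1 groups therefore carried an introduced SRSF2 or U2AF1, WT groups included. Overexpression adds to the cells' own copies of the gene, unlike the knocked-in K700E allele. The labels do not say whether lines were clones or whether replicates came from separate cultures, so p-values measure only the spread between these libraries.

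Values are percent usage of 1 of the isoforms that an event compares: inclusion of an exon, the upstream member of a pair of mutually exclusive exons, the splice site with the shorter intron, or a spliced intron. Between 73% and 79.2% of all events had a value in a library, by panel and library, and the number of reads behind a value is unknown. The files held no gene levels, so neither the cell lines' markers nor the levels of SRSF2, GPATCH8 or the 5 genes could be checked. An event was tested where every library of a panel had a value and its group means were neither all under 5% nor all over 95%. It was called where limma's Benjamini-Hochberg adjusted p over all tested events was under 0.05 and the group means differed by at least 5 percentage points. Every adjusted p below is of this kind. In the SRSF2 panel 37 of the 73 events were tested, 16 in CASP8, 8 in FYN, 7 in EZH2, 3 in GNAS and 3 in INTS3. A further 15 had all group means above 95%, 18 had all below 5% and 3 lacked a value.

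The exons described below are shown to compare the motifs they carry. They were read from GENCODE 29 transcripts, build GRCh38, 5′ to 3′ on the transcribed strand, with bases of CCNG matches (N any base) in capitals.
EZH2 82-nt exon, chr7:148818978-148819059, minus strand: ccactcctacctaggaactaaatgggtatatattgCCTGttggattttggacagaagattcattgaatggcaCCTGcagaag
EZH2 179-nt exon, chr7:148836822-148837000, minus strand: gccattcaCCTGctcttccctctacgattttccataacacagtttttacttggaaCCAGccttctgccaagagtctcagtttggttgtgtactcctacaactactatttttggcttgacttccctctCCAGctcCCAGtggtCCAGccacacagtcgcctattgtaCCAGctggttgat
INTS3 90-nt exon, chr1:153761020-153761109, plus strand: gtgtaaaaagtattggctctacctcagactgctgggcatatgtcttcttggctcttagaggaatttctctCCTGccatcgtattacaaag
FYN exon 7A, chr6:111700104-111700268, minus strand: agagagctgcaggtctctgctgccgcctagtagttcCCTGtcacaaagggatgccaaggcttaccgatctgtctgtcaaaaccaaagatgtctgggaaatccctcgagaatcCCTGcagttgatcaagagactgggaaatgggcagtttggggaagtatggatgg
FYN exon 7B, chr6:111699515-111699670, minus strand: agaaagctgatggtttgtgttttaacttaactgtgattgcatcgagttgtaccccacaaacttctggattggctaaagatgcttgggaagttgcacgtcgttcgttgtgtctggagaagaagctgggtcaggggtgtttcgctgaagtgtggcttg
GNAS exon 3, chr20:58898941-58898985, plus strand: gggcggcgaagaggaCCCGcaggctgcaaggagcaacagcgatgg
CASP8 65-nt exon, chr2:201274889-201274953, plus strand: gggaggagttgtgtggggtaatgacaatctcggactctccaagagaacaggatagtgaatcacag
CASP8 45-nt exon, chr2:201272898-201272942, plus strand: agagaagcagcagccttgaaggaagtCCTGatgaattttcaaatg
Only the transcribed strand was searched, since the factor binds RNA, and no CCNG match overlapped a GGNG match. The EZH2 82-nt exon held 2 CCNG and 0 GGNG matches, the EZH2 179-nt exon 6 and 0, the INTS3 exon 1 and 0, FYN exon 7A 2 and 1, and GNAS exon 3 held 1 and 3. FYN exon 7B and the CASP8 65-nt exon held 0 CCNG and 3 GGNG matches each, and the CASP8 45-nt exon held 1 and 0. Whether these counts go with the P95H differences was not tested. With sgRenilla, P95H means were above WT means for the EZH2 82-nt exon, the INTS3 exon, FYN exon 7A and GNAS exon 3. They were below WT means for FYN exon 7B, counted against transcripts with neither FYN exon, and for the CASP8 65-nt exon. The EZH2 179-nt exon, with the most CCNG matches, averaged 12.3% in P95H and 11.7% in WT libraries. The CASP8 45-nt exon, with CCNG and no GGNG, averaged 37.3% in P95H and 53.7% in WT libraries. Of these differences, those of the INTS3 exon, FYN exon 7A and GNAS exon 3 were called. GNAS exon 3 held more GGNG than CCNG matches. Those of the EZH2 82-nt and 179-nt exons, FYN exon 7B and both CASP8 exons were not called. Such matches are common in internal exons of the same length: CCNG was found in 75.4% of 1444 exons of 82 nt, in 77% of exons of 90 nt, in 92.2% of 165 nt, in 93.1% of 156 nt and in 93.6% of 179 nt. For 45 nt and 65 nt the shares with CCNG were 61.3% and 65.2%, and GGNG was found in 87.1% of exons of 156 nt and 53.8% of 65 nt. A match describes the letters and does not show a binding site.

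With sgRenilla, P95H cells used more of FYN exon 7A, GNAS exon 3 and the INTS3 90-nt exon than WT cells. These were the 5 calls among the 37 tested events, all higher in P95H cells, with 3 in FYN and 1 each in GNAS and INTS3. They made up 13.5% of the tested events of the 5 genes, beside 1.08% of the 43963 events tested in the panel. The genes and tests were chosen with earlier results of these data known, so this contrast is not independent support. The 3 FYN calls share junctions of one exon choice and are not separate observations. The groups did not overlap for 16 of the 37 events, beside 17% of all tested events. The median absolute difference was 3.67 points over the 37 events and 2.67 points over all.

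**Figure D1:**
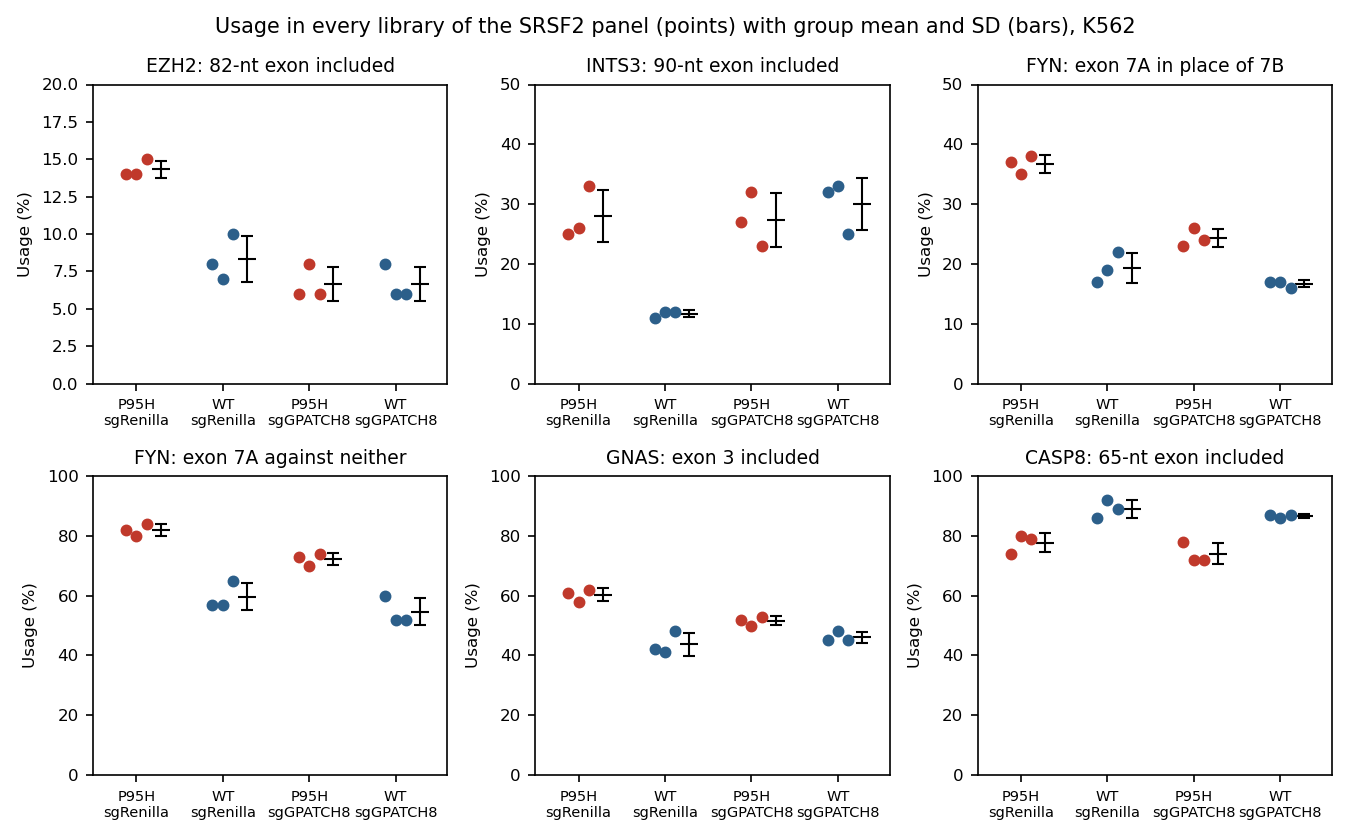
Usage in percent (vertical axes) of 6 events in every library of the SRSF2 panel, one point per library, with the group mean and SD (n = 3) as black bars and P95H groups left of their WT groups. With sgRenilla, the P95H libraries lie above the WT libraries for EZH2, INTS3, FYN and GNAS and below them for the CASP8 exon.

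FYN encodes a SRC family tyrosine kinase. Its exons 7A and 7B are mostly used one in place of the other and encode alternative versions of the linker between the SH2 domain and the kinase domain, 7A being typical of brain and 7B of T cells. Measured as 7A in place of 7B, usage was 37%, 35% and 38% in P95H sgRenilla libraries, against 17%, 19% and 22% in WT sgRenilla libraries. The groups lay 13 points or more apart. The difference was 17.3 points, with a log2 change of 1.24 ± 0.14 (SE) in the ratio of used to not used (adjusted p = 0.0069). This call held without any one of the 6 libraries (adjusted p 0.031 to 0.037).

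The same exon counted against transcripts with neither exon gave 82%, 80% and 84% in P95H sgRenilla cells, against 57%, 57% and 65% in WT sgRenilla cells. All P95H libraries were above all WT libraries, by 22.3 points on average (log2 change 1.58 ± 0.20, adjusted p = 0.011). Without WT replicate 1, WT replicate 2 or P95H replicate 3 the adjusted p was 0.053, 0.054 and 0.053. Inclusion of exon 7A ahead of exon 7B, in transcripts that hold 7B, had 23%, 25% and 27% in P95H sgRenilla libraries and 12%, 13% and 16% in WT sgRenilla libraries. This difference of 11.3 points was called as well (log2 change 1.03 ± 0.16, adjusted p = 0.021), but its adjusted p was 0.055 to 0.085 without any library other than WT replicate 3. Exon 7B against neither was at 93% in every P95H sgRenilla library and at 97% in every WT sgRenilla library, a step that was not called (adjusted p = 0.15).

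GNAS encodes the stimulatory G protein alpha subunit, which activates adenylyl cyclase, and inclusion of its exon 3 gives the long form of the protein. The exon is 45 nt long, keeps the reading frame and is part of 26 GENCODE transcripts. It was included at 61%, 58% and 62% in P95H sgRenilla libraries, against 42%, 41% and 48% in WT sgRenilla libraries. The groups did not overlap, and the difference was 16.7 points (log2 change 0.95 ± 0.15, adjusted p = 0.020). The call was lost without any library other than WT replicate 3 (adjusted p 0.055 to 0.082), while the difference stayed between 15.3 and 18.8 points. In a companion event, where the skipping transcript uses an acceptor 3 nt away, inclusion was 17%, 13% and 15% in P95H cells and 11%, 9% and 11% in WT cells, which was not called (adjusted p = 0.19). The remaining tested GNAS event differed by 3 points (adjusted p = 0.90).

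INTS3 encodes a subunit of Integrator, the complex that processes small nuclear RNAs and ends transcription at paused RNA polymerase. The 90-nt exon lies in 1 GENCODE transcript, which is annotated as a target of nonsense-mediated decay and has its stop codon inside the exon. Its inclusion was 25%, 26% and 33% in P95H sgRenilla libraries, against 11%, 12% and 12% in WT sgRenilla libraries. Every P95H library was above every WT library, with a difference of 16.3 points (log2 change 1.48 ± 0.22, adjusted p = 0.018). Leaving out any one library moved the adjusted p to between 0.050 and 0.072, at or above the threshold in all 6 cases. An INTS3 intron was spliced in 90%, 92% and 90% of P95H sgRenilla transcripts, against 86%, 87% and 84% in WT sgRenilla libraries, which was not called (adjusted p = 0.16). A second INTS3 cassette exon was at 6%, 4% and 5% in P95H cells and at 3% in all 3 WT libraries (adjusted p = 0.24).

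EZH2 is the catalytic subunit of Polycomb repressive complex PRC2, which methylates histone H3 on lysine at repressed genes. The 82-nt exon occurs in 2 GENCODE transcripts, both annotated for nonsense-mediated decay, and its length is not a multiple of 3. It was included at 14%, 14% and 15% in P95H sgRenilla libraries, against 8%, 7% and 10% in WT sgRenilla libraries. The groups did not overlap, yet the difference of 6 points missed the threshold (log2 change 0.82 ± 0.19, adjusted p = 0.074). Tested on usage without the log2 step, the adjusted p was 0.028. Since transcripts with a premature stop are degraded, steady-state usage can lie below the share made, and the files hold nothing to correct for it. None of the 7 tested EZH2 events was called here by limma, and their differences ran between -3.67 and 6 points. Of the 7, 2 had an unadjusted p under 0.05, beside 6316 of all 43963 tested events.

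CASP8 encodes the initiator caspase of death receptor signalling. It was the member with the most tested events, and limma called none of its 16 with sgRenilla. Of the 16, 2 had an unadjusted p under 0.05, beside 6316 of all 43963 tested events. The 65-nt exon, coding in 7 of 8 GENCODE transcripts that hold it, was included at 74%, 80% and 79% in P95H sgRenilla libraries and at 86%, 92% and 89% in WT sgRenilla libraries. All P95H libraries were below all WT libraries, by 11.3 points on average (log2 change -1.18 ± 0.24), with an adjusted p of 0.053. The 45-nt exon upstream of it had the largest CASP8 difference: 27%, 41% and 44% in P95H cells, against 55%, 55% and 51% in WT cells. There the P95H libraries were 17 points apart among themselves, and the adjusted p was 0.33.

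**Figure D2:**
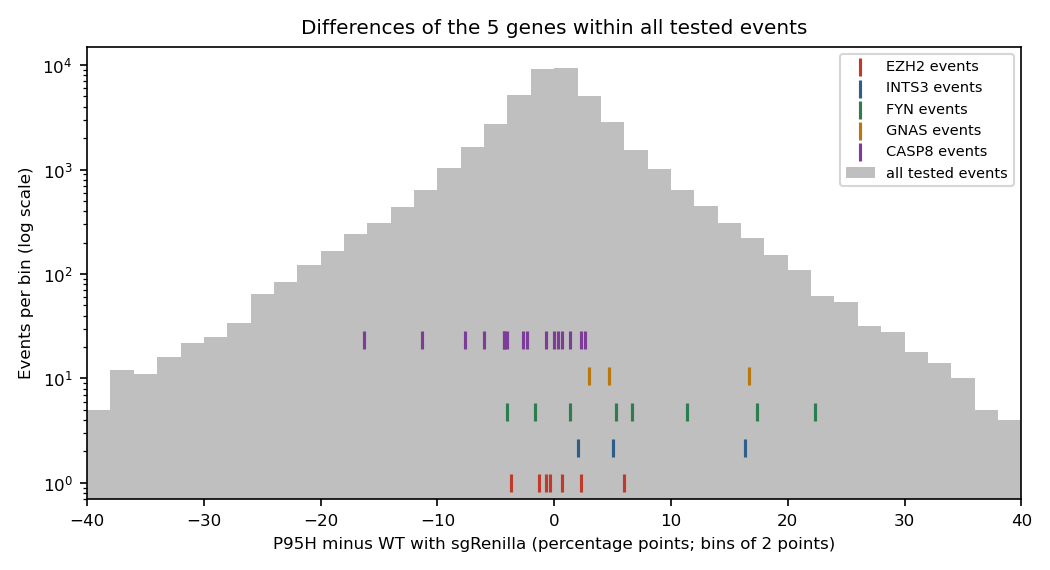
Histogram of the difference P95H minus WT with sgRenilla in percentage points (horizontal axis, bins of 2 points) for all 43963 tested events (grey, log scale on the vertical axis), with one tick for each tested event of the 5 genes; the height of the ticks only separates the genes. Of the 37 events, 7 differed by at least 10 points, beside 10.1% of all events, with the FYN, GNAS and INTS3 ticks at the right and the CASP8 ticks at the left.

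With sgGPATCH8, 3 of the 37 events were called between P95H and WT cells, beside 4.06% of all events. FYN exon 7A was higher in P95H cells in 2 of them, and the CASP8 65-nt exon was lower. FYN exon 7A in place of 7B had 23%, 26% and 24% in P95H sgGPATCH8 libraries, against 17%, 17% and 16% in WT sgGPATCH8 libraries. The groups did not overlap, with a difference of 7.67 points (log2 change 0.66 ± 0.14, adjusted p = 0.031), and the adjusted p was 0.063 to 0.096 without any one library. Exon 7A against neither had 73%, 70% and 74% in P95H sgGPATCH8 cells, against 60%, 52% and 52% in WT sgGPATCH8 cells. Its difference of 17.7 points was called (log2 change 1.09 ± 0.20, adjusted p = 0.018), with an adjusted p of 0.057 to 0.065 without WT replicate 2, WT replicate 3, P95H replicate 1 or P95H replicate 3.

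The CASP8 65-nt exon was included at 78%, 72% and 72% in P95H sgGPATCH8 libraries, against 87%, 86% and 87% in WT sgGPATCH8 libraries. It fell by 12.7 points (log2 change -1.13 ± 0.24, adjusted p = 0.030), about as far as with sgRenilla. The adjusted p was 0.076 to 0.092 without any library other than P95H replicate 1, without which it was 0.046. The change of the P95H effect between guides was 0.04 on the log2 scale, with a 95% interval of -0.72 to 0.81.

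The remaining leading events were not called between P95H and WT cells with sgGPATCH8. GNAS exon 3 had 52%, 50% and 53% in P95H sgGPATCH8 libraries and 45%, 48% and 45% in WT sgGPATCH8 libraries (adjusted p = 0.26). The INTS3 90-nt exon had 27%, 32% and 23% in P95H sgGPATCH8 libraries and 32%, 33% and 25% in WT sgGPATCH8 libraries (adjusted p = 0.70). The EZH2 82-nt exon had 6%, 8% and 6% in P95H sgGPATCH8 cells and 8%, 6% and 6% in WT sgGPATCH8 cells. The CASP8 45-nt exon had 53%, 29% and 48% in P95H sgGPATCH8 libraries and 45%, 46% and 62% in WT sgGPATCH8 libraries (adjusted p = 0.59). In EZH2 the group means were equal, with a 95% interval of the log2 change of -0.42 to 0.42.

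**Figure D3:**
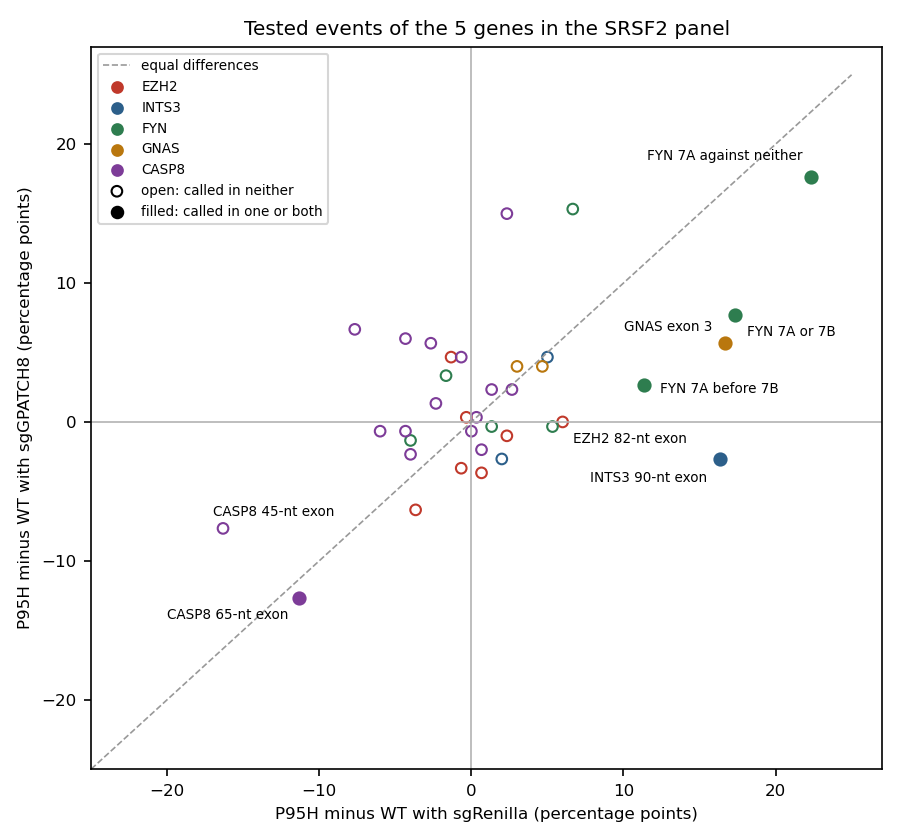
Each point is 1 of the 37 tested events, with the difference P95H minus WT in percentage points with sgRenilla (horizontal axis) and with sgGPATCH8 (vertical axis), coloured by gene and filled where called in at least one comparison; the dashed line marks equal differences. GNAS exon 3, the INTS3 exon, the EZH2 82-nt exon and FYN exon 7A in place of 7B lie below the dashed line, and the CASP8 65-nt exon lies close to it.

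Whether the P95H effect itself differed between guides was tested as the effect with sgGPATCH8 minus the effect with sgRenilla. None of the 37 events was called in this limma test, beside 0.0614% of all events, while 11 of the 37 had an unadjusted p under 0.05, as had 5236 of the 43963 events tested. The INTS3 90-nt exon came nearest, with a change of -19 points (log2 -1.66, 95% interval -2.36 to -0.97, adjusted p = 0.090). GNAS exon 3 had -11 points (log2 -0.63, interval -1.10 to -0.16, adjusted p = 0.28). FYN exon 7A in place of 7B had -9.67 points (log2 -0.58, interval -1.03 to -0.14, adjusted p = 0.29). For the EZH2 82-nt exon the change was -6 points (log2 -0.82, interval -1.42 to -0.22, adjusted p = 0.27). These 4 estimates are below 0, and none passed the adjustment over all events. FYN exon 7A against neither changed by -4.67 points (adjusted p = 0.55) and the CASP8 45-nt exon by 8.67 points (adjusted p = 0.79). Of the 37 events, 18 changed upward and 19 downward, with a median of -0.333 points, as over all events.

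Set against sgRenilla within P95H cells, sgGPATCH8 gave 5 calls among the 37 events, beside 4.84% of all events. The P95H sgRenilla libraries also stand in the comparison with WT cells above, so the results of both share their error. Of these 5 calls, 4 were lower with sgGPATCH8, in EZH2 and FYN, and 1 CASP8 event was higher. The EZH2 82-nt exon was at 6%, 8% and 6% in P95H sgGPATCH8 libraries, against 14%, 14% and 15% in P95H sgRenilla libraries. It fell by 7.67 points without overlap (log2 change -1.13 ± 0.19, adjusted p = 0.0098), and the call held without any one of the 6 libraries (adjusted p 0.016 to 0.041). A second EZH2 exon, 179 nt long and found in 1 GENCODE transcript annotated for nonsense-mediated decay, had 6%, 7% and 8% in P95H sgGPATCH8 libraries and 12%, 12% and 13% in P95H sgRenilla libraries. It fell by 5.33 points (log2 change -0.83 ± 0.15, adjusted p = 0.013). Its call was lost without P95H sgRenilla replicate 3 (adjusted p = 0.051) and without P95H sgGPATCH8 replicate 1, where the difference was -4.83 points.

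FYN exon 7A in place of 7B fell by 12.3 points with sgGPATCH8 in P95H cells (log2 change -0.83 ± 0.14, adjusted p = 0.011); its libraries, given above, did not overlap. This call too held without any one library (adjusted p 0.026 to 0.045). Exon 7A ahead of 7B had 17%, 16% and 17% in P95H sgGPATCH8 libraries, against 23%, 25% and 27% in P95H sgRenilla libraries. It fell by 8.33 points (log2 change -0.71 ± 0.16, adjusted p = 0.037), with an adjusted p of 0.063 to 0.12 without any one library. In CASP8 the inner donor of an exon near the gene's start, the site with the shorter intron, was used at 36%, 50% and 44% in P95H sgGPATCH8 libraries, against 24%, 30% and 28% in P95H sgRenilla libraries. It rose by 16 points (log2 change 1.0 ± 0.20, adjusted p = 0.022), with an adjusted p of 0.062 to 0.077 without sgRenilla replicate 1 or 3 or sgGPATCH8 replicate 2 or 3. GNAS exon 3 was 8.67 points lower with sgGPATCH8 than with sgRenilla in P95H cells, without a call (adjusted p = 0.086).

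In WT SRSF2 cells sgGPATCH8 gave 1 call among the 37 events, beside 0.491% of all events. This was the INTS3 90-nt exon, at 32%, 33% and 25% in WT sgGPATCH8 libraries, against 11%, 12% and 12% in WT sgRenilla libraries. It rose by 18.3 points (log2 change 1.62 ± 0.22, adjusted p = 0.011), and its libraries lay within the 23% to 33% of the P95H groups. The same WT sgRenilla libraries stand in the comparison with P95H cells and in the change between guides, so these INTS3 results share their error. The call was lost without WT sgRenilla replicate 1 or 2 or WT sgGPATCH8 replicate 1 or 2 (adjusted p 0.050 to 0.064). The EZH2 82-nt exon, FYN exon 7A in place of 7B and GNAS exon 3 differed by -1.67, -2.67 and 2.33 points between WT sgGPATCH8 and WT sgRenilla cells, with adjusted p of 0.61, 0.58 and 0.81.

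The INTS3 exon was then followed in the U2AF1 panel, in a pair of comparisons added after these values were seen. In S34F cells it had 20%, 26% and 29% with sgGPATCH8, against 5%, 11% and 9% with sgRenilla. In WT U2AF1 cells it had 6%, 20% and 22% with sgGPATCH8, against 4%, 10% and 12% with sgRenilla. Each sgGPATCH8 library was above the sgRenilla library of the same number in both genotypes, and the replicate 1 libraries were the lowest of each group. Neither difference was called (adjusted p = 0.48 in S34F cells and 1 in WT cells). None of the 40 tested events of the 5 genes was called in these comparisons, beside 0.0345% of all events in S34F cells and 0.0322% in WT cells. Unadjusted p under 0.05 in limma was found for 5 events in S34F cells and 1 in WT cells. Over all 43468 tested events it was found for 3038 and 2117. These fits did not pair the libraries by number.

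U2AF1 recognises the AG at the 3′ end of introns, and S34F alters its choice among 3′ splice sites. With sgRenilla, none of the 40 tested events of the 5 genes was called between S34F and WT cells, beside 0.0023% of all events. In limma, 8 of the 40 had an unadjusted p under 0.05, as had 4051 of the 43468 events tested. With sgGPATCH8, 1 of 40 was called, beside 0.023% of all events. This was a pair of CASP8 acceptors 26 nt apart. The upstream acceptor was used at 30%, 33% and 39% in S34F sgGPATCH8 libraries, against 88%, 81% and 85% in WT sgGPATCH8 libraries. Use of it fell by 50.7 points (log2 change -3.36 ± 0.34, adjusted p = 0.018). No call was left without any one library other than WT replicate 1. With sgRenilla the same site had 52%, 45% and 33% in S34F libraries and 77%, 68% and 70% in WT libraries, without overlap but with an adjusted p of 0.13. Read from another upstream donor, the site had 38%, 28% and 36% in S34F sgGPATCH8 libraries and 79%, 60% and 67% in WT sgGPATCH8 libraries (adjusted p = 0.088).

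GNAS exon 3 stood higher in every S34F and K700E group than in its WT group. It had 64%, 65% and 71% in S34F sgRenilla libraries, against 51% in all 3 WT sgRenilla libraries, a difference of 15.7 points that was not called (adjusted p = 0.17). With sgGPATCH8 it had 66%, 63% and 65% in S34F cells and 49%, 49% and 48% in WT cells (adjusted p = 0.12). SF3B1 takes part in recognising the branch point, and K700E changes the choice of 3′ splice sites. Averaged over guides, 1 of the 40 tested events was called between K700E and WT cells, beside 3.35% of all events. This was GNAS exon 3, higher by 11.2 points in K700E cells (log2 change 0.64 ± 0.12, adjusted p = 0.046). Its inclusion was 61% in the K700E sgRenilla library and 46% in the WT one, 50% and 53.5% against 42% and 44% with sgGPATCH8, and 57% in both K700E sgSUGP1 libraries against 47.5% and 47%. The call was lost with either sequencing run alone and on usage without the log2 step, and without any one targeting-guide library other than WT sgSUGP1 replicate 1.

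The EZH2 82-nt exon also had a higher mean in each S34F and K700E group than in its WT group, without a call. It averaged 12.3% ± 5.7 in S34F and 7.67% ± 2.3 in WT sgRenilla libraries, and 10% ± 2 in S34F and 8% ± 3.5 in WT sgGPATCH8 libraries (SD, n = 3 each), with overlapping groups. In the SF3B1 panel it ranged between 8% and 10% in K700E and between 5% and 6% in WT libraries, a difference of 3.42 points averaged over guides, under the 5 points a call needs (adjusted p = 0.043). FYN exon 7A in place of 7B averaged 16.3% ± 2.1 in S34F and 19.3% ± 4.7 in WT sgRenilla libraries (SD, n = 3 each), and it was 7 points lower in K700E than in WT cells (adjusted p = 0.083). The INTS3 90-nt exon differed by 1.83 points between K700E and WT cells (adjusted p = 0.44). The CASP8 65-nt exon had 87.7% ± 2.5 in S34F and 87.3% ± 3.1 in WT sgRenilla libraries (SD, n = 3 each).

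**Figure D4:**
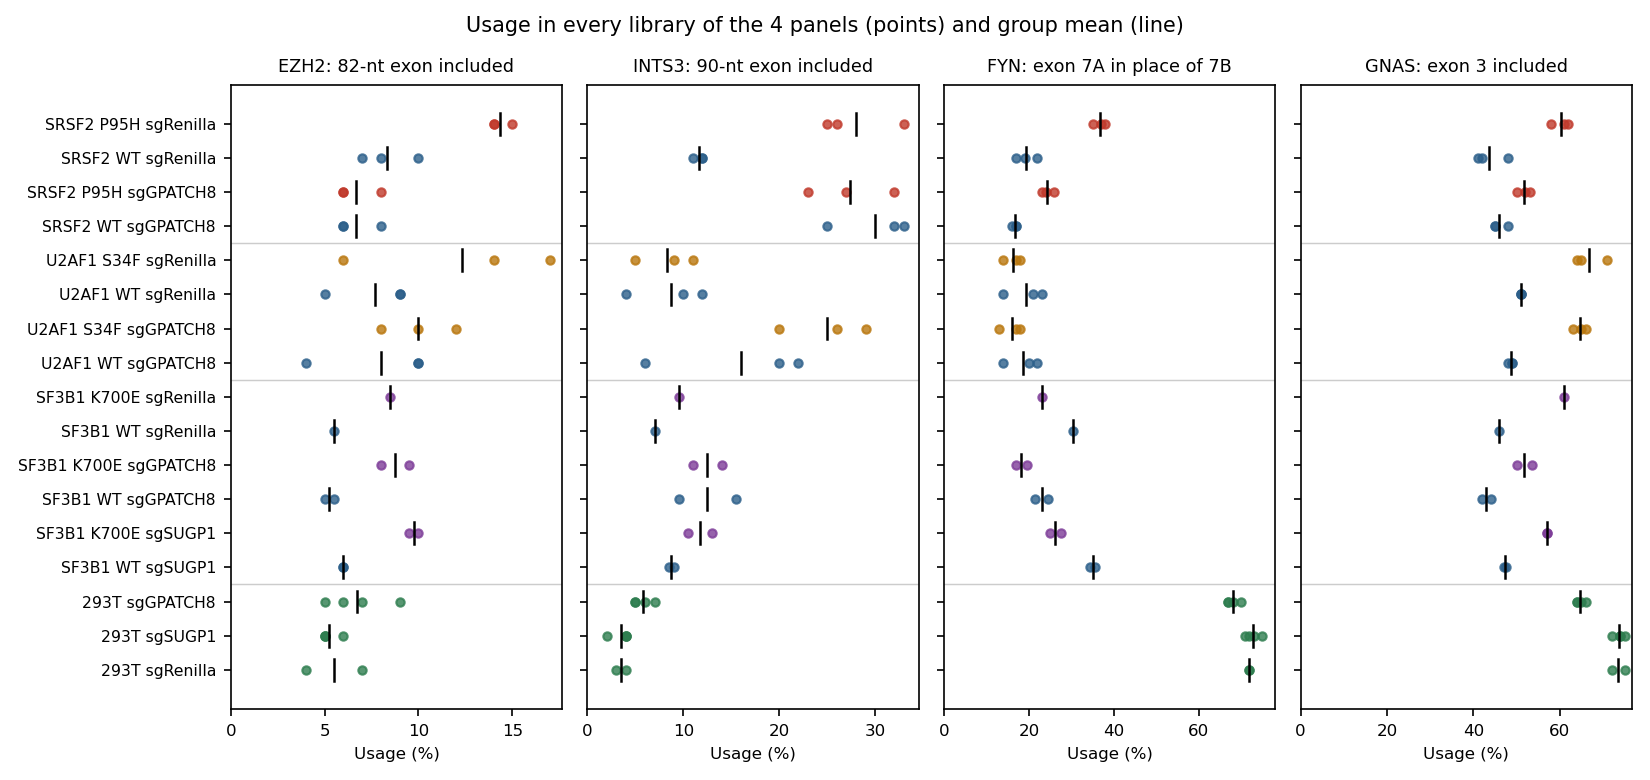
Usage in percent (horizontal axes) of 4 exons in every library of the 4 panels, one point per library and a black line at the group mean; rows are groups, mutant above WT and targeting guide above sgRenilla in 293T. The GNAS exon is higher in mutant than in WT groups of the 3 K562 panels, and the FYN ratio stands at 67% to 75% in 293T, above all K562 libraries.

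Guides against GPATCH8 or SUGP1 gave no call among the 5 genes in the SF3B1 or 293T panels. In the SF3B1 panel, averaged over genotypes, sgGPATCH8 called 0 of 40 events, beside 0.00984% of all events. There sgSUGP1 called 0 of 40, beside 0%. An unadjusted limma p under 0.05 was found for 5 and 2 of the 40, beside 4721 and 6346 of all 50823 tested events. In 293T cells sgGPATCH8 called 0 of 39 events, beside 0.0673%, and sgSUGP1 called 0 of 39, beside 0.0428%. There 4 and 0 of the 39 were under that unadjusted p, beside 3970 and 3607 of all 49031 tested events. In 293T, GNAS exon 3 had 64.8% ± 0.96 with sgGPATCH8 (SD, n = 4), against 72% and 75% in the sgRenilla libraries (difference -8.75 points, adjusted p = 0.54). The INTS3 90-nt exon had 5.75% ± 0.96 with sgGPATCH8 (SD, n = 4), against 4% and 3% with sgRenilla (adjusted p = 0.68). In the SF3B1 panel it had 12.5% ± 2.1 in K700E and 12.5% ± 4.2 in WT sgGPATCH8 libraries (SD, n = 2 each, of different guides). The K700E and WT sgRenilla libraries had 9.5% and 7% (adjusted p = 0.56).

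FYN usage stood at different levels in the 293T and K562 panels. Exon 7A in place of 7B was used at 72% in both 293T sgRenilla libraries, against 17% to 22% in the WT SRSF2 sgRenilla libraries, 14% to 23% in the WT U2AF1 ones and 30.5% in the SF3B1 WT one. GNAS exon 3 stood at 72% and 75% in 293T sgRenilla libraries, above the 41% to 51% of the WT K562 sgRenilla libraries. The INTS3 exon was at 4% and 3% in 293T, at or below every K562 library. These levels come from panels processed in separate tables and were not tested. A difference between cell lines cannot be told apart from one between panels.

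The events whose usage ran most like that of each gene's leading event over the 12 SRSF2 libraries were listed by Pearson's r, as a description. Libraries of a group share their treatment and are not independent points. For FYN exon 7A against neither they were events of MAPKAPK2 (r = 0.954), SH3BGRL (r = -0.952) and SNRNP48 (r = -0.942). For GNAS exon 3 they were in SRP9 (r = 0.971), INPP5B (r = -0.956) and ZNF276 (r = -0.954). For the INTS3 90-nt exon they were in RAP1B (r = -0.932), PLEKHB2 (r = -0.929) and ATP5MD (r = -0.927). For the EZH2 82-nt exon they were in KRT8 (r = 0.95), FUK (r = 0.949) and PCID2 (r = 0.949). For the CASP8 45-nt exon they were in LRRC28 (r = 0.955), CIAPIN1 (r = 0.92) and CLSTN1 (r = 0.906).

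Partners of the 5 genes were counted in the same tests, beside 1.08% of all events called for P95H against WT with sgRenilla and 4.06% with sgGPATCH8. Between P95H and WT cells with sgRenilla, 0 of 74 events in Integrator subunits and 0 of 28 in death receptor signalling genes were called by limma. Of these, 7 and 3 had an unadjusted p under 0.05, beside 6316 of all 43963 tested events. The single tested event of other SRC family kinases and that of other G alpha proteins were not called either. In PRC2, 1 of 49 events (2.04%) was called with each guide: an exon of EED, a core PRC2 subunit, averaged 11% in P95H and 4.3% in WT cells with sgRenilla (adjusted p = 0.015). With sgGPATCH8 the EED exon averaged 15% in P95H and 4% in WT cells (adjusted p = 0.0012). Among 103 events of 10 further genes reported as mutant SRSF2 targets, 2 (1.94%) were called with sgRenilla, both higher in P95H cells, and 8 (7.77%) with sgGPATCH8, 4 higher and 4 lower. The shares with sgRenilla lie near that of all events. The calls with sgRenilla were a donor site of ATF2, a transcription factor, at 89.3% in P95H and 75% in WT cells, and splicing of an intron of HNRNPM, an RNA-binding protein, at 54% in P95H and 40.3% in WT cells. With sgGPATCH8 they were in ATF2, HNRNPA2B1, SEC31A and ARMC10. ATF2, HNRNPA2B1 and SEC31A each had several calls, which share splice sites within the gene and are not separate observations. Of the Integrator events 1 of 74 was called with sgGPATCH8, in INTS8, and of the death receptor events 0 of 28. Of the 28, 3 had an unadjusted p under 0.05 in limma, beside 8879 of all 43963 tested events.

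The largest change among these partners came with sgGPATCH8 in INTS14, another Integrator subunit. The upstream of a pair of INTS14 acceptors, read from 3 donors, fell with sgGPATCH8, by differences of -43.7, -35 and -45.3 points in P95H cells and, from 2 of these donors, of -33.7 and -36.3 points in WT cells. For one donor the means were 35.7% in P95H sgGPATCH8 and 81% in P95H sgRenilla cells (adjusted p = 0.00037). The same donor gave 41% in WT sgGPATCH8 and 77.3% in WT sgRenilla cells (adjusted p = 0.0051). Over the partner lists, sgGPATCH8 in P95H cells gave 4 of 74 Integrator, 2 of 49 PRC2, 0 of 28 death receptor and 6 of 103 further target events, beside the 4.84% of all events. Of the 28, 4 had an unadjusted limma p under 0.05, beside 9271 of all 43963 tested events. All Integrator calls but one in INTS9 were the INTS14 acceptor pair read from different donors. All further target calls but one in HNRNPM were in ARMC10, some on shared junctions, so these calls are not all separate observations. The single tested event of the other SRC family kinases, a donor of LYN, was called too, at 58.7% in P95H sgGPATCH8 and 48.7% in P95H sgRenilla cells (adjusted p = 0.033), and that of the other G alpha proteins was not.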

How the data were processed

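RNA-seq was read from 4 deposited tables of isoform fractions (0 to 1, with 2 decimals), 1 per panel. The tools named are TopHat2 2.0.8b, TopHat, Bowtie and RSEM 1.2.4, with build hg19, per the submitters' processing notes. How the authors made a fraction from reads, and when they left it missing, is not given in the sources used here. The libraries were strand-specific and made from polyadenylated RNA, per the labels' protocols. The 54 columns used gave 44 libraries, with the sequencing runs of an SF3B1 library averaged. The labels list 55 samples, since SRSF2 P95H sgGPATCH8 replicate 3 has 2 sequencing runs there but only 1 column. That column cannot be tied to either run. In the 293T panel the guides of a target were fitted with a mean each and averaged. In the SF3B1 panel the 2 libraries of a target, each with its own guide, shared 1 mean per genotype. The tested quantity was log2((usage + 0.01)/(1 - usage + 0.01)). Groups of a panel had 1 mean each in limma 3.58.1 under R 4.3.3, which moderated the spread with a trend; the procedure was tested on simulated data. Percent values are 100 times the deposited fraction. Gene names came from junction lengths matched to GENCODE 29 (93.1% of events). The exons shown were placed on GRCh38 by the position offset of that match, without a separate conversion between builds.

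The members, partner lists and tests were chosen with earlier results of these data known. Described events were those called in any comparison and, for each gene, the tested event with the largest P95H difference with sgRenilla. A few further events were named after their values were seen: the FYN acceptors 4 nt apart, the INTS3 intron and its other cassette exon, FYN exon 7B against neither, the GNAS companion event, the CASP8 65-nt exon with sgRenilla and the CASP8 acceptors from another donor. Likeness was the highest absolute Pearson correlation over the SRSF2 libraries, 3 genes each. Same-numbered libraries deviated together in the U2AF1 panel for S34F against WT with sgRenilla (correlations 0.152 to 0.402). They also did for sgGPATCH8 against sgRenilla in WT cells (0.123 to 0.357), so these numbers pair the libraries there. The correlations were 0.075 to 0.243 for S34F against WT with sgGPATCH8. For sgGPATCH8 against sgRenilla in S34F cells they were 0.089 to 0.266. The main fits had no term for this pairing. In the SRSF2 panel same-numbered libraries did not deviate together (-0.048 to 0.033). The comparisons of sgGPATCH8 with sgRenilla in the U2AF1 panel were added after the INTS3 values were seen. Alternatives changed the offset to 0.05, the scale, the limits on group means, the handling of missing values, the smallest difference (10 points), the pairing, the libraries sharing the spread, the sequencing run, the means for guides, and single libraries.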

Additional observations from a re-analysis of the deposited data

Results flagged for a closer look

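Of 34 sets of 4 libraries tested, all in 293T, 6 held a library that stood apart from the other 3 by Dixon's test at the 95% level, all of them with sgSUGP1. Chance flags about 1 in 20 groups, and values come in steps of 1 point. In 3 cases the 3 other libraries were equal and the fourth lay 1 point away: the EZH2 82-nt exon at 6%, the second EZH2 exon at 3% and the GNAS companion event at 23%. The INTS3 90-nt exon was at 2% in one library and 4% in the others. The FYN acceptors 4 nt apart stood at 3%, against up to 10%. The CASP8 65-nt exon stood at 82%, against up to 89%. The cause was not tested.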

How the results depend on the processing

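Of the calls among the 5 genes, none in the SRSF2 panel held when each comparison was fitted with its own 6 libraries alone. There 0 were called for P95H with sgRenilla, beside 0 of all 43180 tested events, and 0 for P95H with sgGPATCH8, beside 1 of 43398. For sgGPATCH8, 0 were called in P95H cells, beside 331 of 42731, and 0 in WT cells, beside 0 of 43666. For S34F with sgGPATCH8, 0 of the 5 genes' events were called as well. Fewer libraries then estimate the spread. A minimum of 10 points left 2 calls for sgGPATCH8 in P95H cells. With the replicate number as a block (the SRSF2 numbers do not pair libraries), 2 events were called for P95H with sgRenilla, 1 for P95H with sgGPATCH8, 3 for S34F with sgGPATCH8 and 0 for K700E; the block moved no other count by over 1.5 times. For S34F with sgGPATCH8, the offset of 0.05, untransformed usage and no limits on group means each gave 2 calls, and without limits S34F with sgRenilla had 1. For K700E, untransformed usage, run 1 alone and run 2 alone gave 0. Leaving out single libraries gave 1 to 4 calls for P95H with sgRenilla, 0 to 1 for P95H with sgGPATCH8, 2 to 4 and 0 to 1 for sgGPATCH8 in P95H and WT cells, 0 to 1 for S34F with sgGPATCH8 and 0 to 1 for K700E, and 0 in the others. The change of the CASP8 65-nt exon's P95H effect between guides ran between -3.33 (without P95H sgGPATCH8 replicate 1) and 0.167 points (without WT sgRenilla replicate 1), against -1.33 with all libraries; no other named event reversed. Over all tested events, leaving out single libraries gave 79 to 111 calls for P95H with sgRenilla, and the block gave 87, against 475 in the main fit. Leaving out an SF3B1 sgRenilla library gave no value, as each genotype has only 1. The cause of these shifts was not tested. Depth is unknown, so what it limits could not be stated.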
